A study of Mus musculus with 15 samples.

Results

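The dual-specificity MAP kinase phosphatases described here are 7 genes, Dusp1, Dusp2, Dusp4, Dusp5, Dusp6, Dusp10 and Dusp16, of the 18194 mouse genes that have a probe set of their own on the larger of the arrays. They were chosen by name, and every probe set annotated to one of them alone was used. That gave 9 of 45101 probe sets for the CD4+ T cells, with 2 for Dusp10, 2 for Dusp16 and 1 for each of the others, and 6 of 22690 for the thymocytes, where Dusp4 and Dusp5 had none and Dusp16 had 1. The series holds 15 Affymetrix arrays of mice on the 129/SJ background, aged 6 to 20 weeks by the labels, while the study's methods put the thymocyte donors at 6 weeks. CD4+ T cells were sorted from spleens of N-ras KO mice, a germline knockout of the Ras GTPase gene Nras that affects all tissues, and of their WT littermates, and were grown overnight without antibody (control, called unstimulated) or with 1 μg/ml of antibodies to CD3 and CD28, a low-level TCR stimulus. Each of these 4 groups holds 3 arrays, numbered 1 to 3. The other 3 arrays are thymocytes taken directly and left untreated, 1 each from a WT, an N-ras KO and an H-ras KO mouse, the last a germline knockout of Hras.

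Dual-specificity phosphatases remove phosphate from both the threonine and the tyrosine of the activation loop of MAP kinases and so switch these kinases off. Dusp1, Dusp2, Dusp4 and Dusp5 are nuclear enzymes whose genes are known to be induced by mitogens, and Dusp5 is selective for ERK. Dusp6 is a cytoplasmic, ERK-selective enzyme, while Dusp10 and Dusp16 act mainly on JNK and p38. Ras proteins start the cascade that ends at ERK, and several of these phosphatase genes are textbook feedback targets of that cascade in lymphocytes.

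RefSeq promoter sequences were at hand for 6 of the 7 genes, Dusp4 being the exception. Those of Dusp1 and Dusp5 are shown, the only ones of the 6 with a match to a searched motif. Dusp1 also gave the largest thymocyte difference. Dusp5 gave WT values after stimulation that did not overlap those before it, a separation whose share over all probe sets was not counted. Dusp16 on 1440615_at gave such WT values too, and its listed promoter held no match. That run, chr6:134792629-134792878, lies inside the annotated span of the gene, so bases upstream of its outer start were not searched. The runs are the 250 bases just upstream of the annotated start, 5′ to 3′ on the gene's own strand, with matches to searched motifs in capitals. They lie on GRCm38.p6 at chr17:26508473-26508722, minus strand, for Dusp1 and chr19:53528895-53529144, plus strand, for Dusp5.
Dusp1: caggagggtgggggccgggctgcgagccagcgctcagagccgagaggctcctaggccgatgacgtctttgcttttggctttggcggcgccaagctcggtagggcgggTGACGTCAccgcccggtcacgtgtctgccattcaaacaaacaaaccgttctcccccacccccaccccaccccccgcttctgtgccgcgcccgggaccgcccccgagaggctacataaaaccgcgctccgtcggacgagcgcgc
Dusp5: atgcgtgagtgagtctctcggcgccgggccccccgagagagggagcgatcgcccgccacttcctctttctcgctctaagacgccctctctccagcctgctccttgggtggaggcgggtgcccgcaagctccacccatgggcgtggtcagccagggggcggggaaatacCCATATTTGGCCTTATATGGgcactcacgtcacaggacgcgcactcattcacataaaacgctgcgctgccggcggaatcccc
The capitals in Dusp1 are a cAMP response element, TGACGTCA, that begins 143 bases before the start. This motif stood in 1.55% of the 32851 RefSeq promoters searched over the same 250 bases. The capitals in Dusp5 are 2 adjacent CArG boxes, the motif of serum response factor, beginning 82 and 72 bases before the start. A CArG box stood in 1.47% of all promoters. Each of these motifs occurred in 1 of the 6 phosphatase promoters. TGANTCA, the AP-1 motif, and CCGGAAG, an ETS motif, were in none of the 6 and in 6.75% and 6.91% of all promoters. All motifs were searched on both strands and none of the printed matches overlaps another. A match is a run of letters and was not tested as a binding site. No link between a motif and the values of its gene was tested.

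The deposited values are log2 expression values set to a median of 0 in each probe set. In the CD4+ T cells that 0 is the median of the 3 unstimulated arrays of the same genotype, on all 45101 probe sets, and in the thymocytes it is the median of the 3 arrays. The tables therefore hold differences and no levels: unstimulated WT and N-ras KO cells cannot be compared, the genes cannot be ranked by abundance, and the labelled cell type cannot be checked against the level of its markers. Nras itself went against the labels of some CD4+ T cell arrays. On its 3 probe sets the N-ras KO replicate 3 arrays stood at 0.80 to 2.09, above both other N-ras KO replicates, and on the probe set with the widest spread the WT replicate 1 arrays stood at -2.68 and -3.04, while the other WT arrays lay between -0.10 and 0.28. For the phosphatase probe sets, the fit was repeated without the pairs labelled N-ras KO 3 and WT 1. Results are given both ways wherever this changed whether a threshold was met. Genes of the other lists and cell markers were read with all pairs only. In thymocytes Nras was 1.81, 2.46 and 2.38 log2 units above N-ras KO in the WT array on its 3 probe sets and differed from H-ras KO by -0.28 to 0.02. No probe set was annotated to Hras alone. Those annotated to several genes were not searched for it, so Hras was not read here.

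Across the 7 genes, low-level stimulation of CD4+ T cells went with much lower Dusp16 on 1 of its probe sets in both genotypes, with higher Dusp5 in WT cells, and with values for the other 5 genes that did not pass the 1.5-fold and p threshold in either genotype when all pairs were used. Dusp2 passed it in WT once WT pair 1 was left out. No member, and 0% of the 45101 probe sets, passed limma's adjusted p of 0.05 for the response of WT, the response of N-ras KO, their mean or their difference, while 1941, 3200, 2970 and 2067 probe sets had an unadjusted p under 0.05. The study's own thresholds are an unadjusted p under 0.05, from an unpaired t-test, with a change of at least 1.5-fold. Applied here to the p of the paired limma fit, they were met by 2 of 9 member probe sets in WT, against 2.80% of all probe sets. In N-ras KO they were met by 2 of 9, against 4.91% of all, and both belonged to Dusp16. For the mean response over both genotypes the count was 1 of 9, again Dusp16, against 2.74%. The median response of the 9 member probe sets was 0.26 in WT and 0.23 in N-ras KO on the log2 scale, beside 0.00 and 0.01 over all probe sets.

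**Figure D1:**
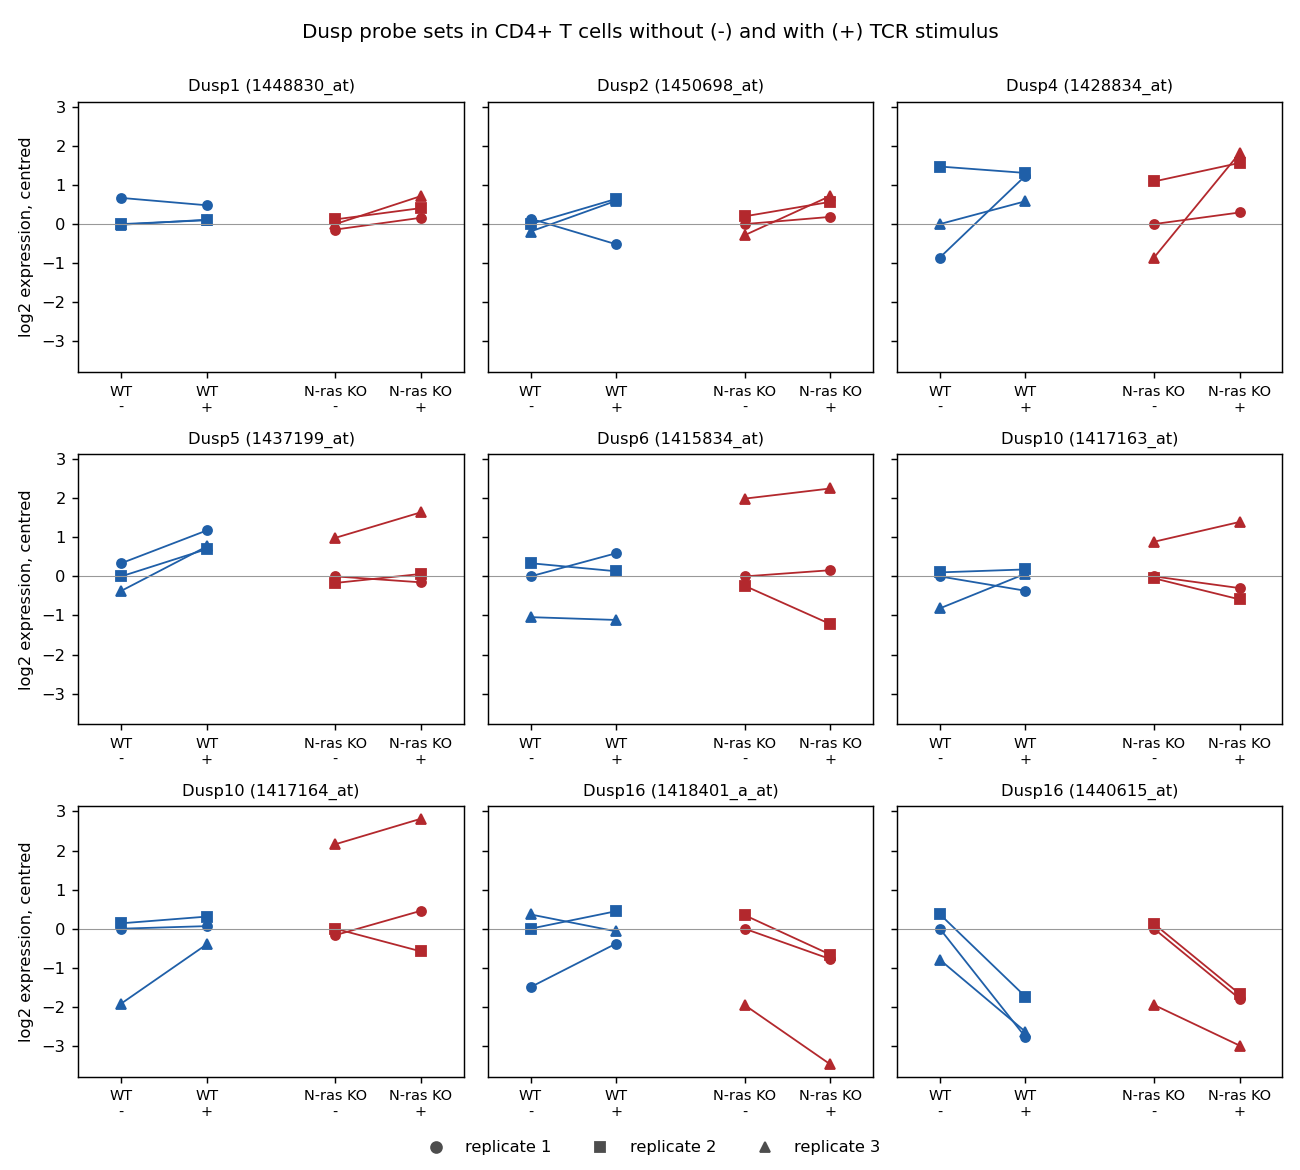
Log2 expression (vertical axis, 0 at the median of the genotype's unstimulated arrays) of the 9 probe sets in each of the 12 CD4+ T cell arrays, WT in blue and N-ras KO in red, with lines joining the unstimulated (-) and stimulated (+) array of the same number. Dusp16 on 1440615_at runs down in all 6 pairs, and the N-ras KO replicate 3 arrays stand apart from the other N-ras KO arrays for Dusp6, Dusp10 and Dusp16.

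Dusp16, a phosphatase of JNK and p38 (chr6:134715468-134807063, GRCm38.p6), gave the largest response of the family, and its 2 probe sets did not move alike. On 1440615_at the unstimulated WT arrays read 0.00, 0.37 and -0.80 and the stimulated ones -2.78, -1.74 and -2.64 on the centred log2 scale. All 3 stimulated WT arrays lay below all 3 unstimulated ones. The share of all probe sets whose groups separate in this way was not counted, here or for Dusp5 and Dusp1 below. The unstimulated N-ras KO arrays read 0.00, 0.12 and -1.95 and the stimulated ones -1.79, -1.67 and -2.99. These groups overlapped, because the unstimulated replicate 3 array lay below 2 of the stimulated arrays, yet each stimulated array was below its own partner. The probe set was lower in all 6 pairs, as were 2.13% of all probe sets. The WT response was -2.24 ± 0.24 (SE), 4.74-fold lower, with a limma p of 8.4e-05 that ranked 1 among the 45101 and an adjusted p of 0.981. The N-ras KO response was -1.54 ± 0.24, 2.91-fold lower, with a limma p of 0.00068 and an adjusted p of 0.528. In the study's unpaired t-test the p was 0.0090 in WT and 0.12 in N-ras KO. The mean over both genotypes was -1.89 (95% interval -2.31 to -1.47), ranked 2 by p, with an adjusted p of 0.333.

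Leaving out N-ras KO pair 3 and WT pair 1 together left a mean Dusp16 response of -1.89 on 1440615_at. Over all alternatives the mean response lay between -2.02 and -1.76, and its adjusted p between 0.084 and 1.00.

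The other Dusp16 probe set, 1418401_a_at, gave another picture. Its unstimulated WT arrays read -1.50, 0.00 and 0.36 and its stimulated WT arrays -0.38, 0.45 and -0.07, so that the groups overlapped and 2 of 3 pairs were higher after stimulation. Its unstimulated N-ras KO arrays read 0.00, 0.35 and -1.95 and its stimulated ones -0.78, -0.66 and -3.47, which overlapped as groups while all 3 pairs were lower. The WT response was 0.38 ± 0.31 (SE) and did not pass the threshold. It rested on single pairs, being 0.01 without WT pair 1 and 0.78 without WT pair 3, the latter with a limma p of 0.037. The N-ras KO response was -1.10 ± 0.31, 2.15-fold lower, with a limma p of 0.011 and an adjusted p of 0.652. Without N-ras KO pair 3 the response was -0.89 and the p 0.063, which became 0.031 when WT pair 1 was left out too, and in a fit with no replicate block the p was 0.22. The Dusp16 transcripts that each probe set matches were not analysed here.

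The nuclear, mitogen-inducible group comprised Dusp1, Dusp2, Dusp4 and Dusp5, and their mean responses over both genotypes were all above 0, from 0.22 to 0.99 on the log2 scale. Dusp5 (chr19:53529145-53541809), the nuclear ERK phosphatase, was the clearest of them. Its unstimulated WT arrays read 0.34, 0.00 and -0.37 and its stimulated WT arrays 1.18, 0.70 and 0.77, with no overlap. The N-ras KO arrays read 0.00, -0.17 and 0.99 without and -0.15, 0.06 and 1.64 with stimulus, and overlapped widely because replicate 3 was high in both. The WT response was 0.89 ± 0.19 (SE), 1.86-fold higher, with a limma p of 0.0034 and an adjusted p of 1.00. The N-ras KO response was 0.24 ± 0.19, with a limma p of 0.25. Without N-ras KO pair 3, whose Nras went against its label, the N-ras KO response was 0.04. The difference of 0.65 between the responses had an interval from -0.01 to 1.31 and did not pass the threshold (limma p of 0.054, adjusted p of 0.961). It was 0.85 without N-ras KO pair 3 (p of 0.019), 0.88 without that pair and WT pair 1 (p of 0.044), 0.68 with each array centred on its median (p of 0.041) and 0.70 with array weights (p of 0.035). With 1 probe set per gene its p was 0.04995. Other alternatives gave the difference a limma p of 0.35 (no replicate block), 0.13 (block as a random effect) and 0.073 (quantile normalization). From stimulated arrays alone the p was 0.46, and without N-ras KO pair 1 or pair 2 it was 0.14 and 0.11. Over all alternatives the difference lay between 0.36 and 0.88 and its lowest adjusted p was 0.771. Without WT pair 1 the WT response was 0.92, with a limma p of 0.016. In a fit with no replicate block the p of the WT response was 0.086.

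Dusp4 (chr8:34807610-34819894), a nuclear phosphatase of ERK and JNK, had the widest spread of pair differences among the 9 probe sets. The unstimulated WT arrays read -0.86, 1.47 and 0.00 and the stimulated ones 1.24, 1.31 and 0.58. In N-ras KO the values were 0.00, 1.09 and -0.86 without and 0.30, 1.57 and 1.82 with stimulus. Both genotypes overlapped, and most of the shift came from 2 pairs, WT 1 at 2.10 and N-ras KO 3 at 2.68, the pairs whose Nras values went against their labels. The mean response of 0.99 ± 0.42 (SE) had a limma p of 0.054, and the remaining 4 pairs ran from -0.16 to 0.58. Without those 2 pairs the mean response was 0.30, with a limma p of 0.16. Dusp4 was higher in 5 of 6 pairs. For this count, and for the same count in Dusp2 and Dusp10 below, the share of all probe sets was not taken.

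Dusp1 (chr17:26505591-26508472), the founding immediate-early member of the family, hardly moved in WT cells after the overnight stimulus. The unstimulated WT arrays read 0.67, 0.00 and -0.02 and the stimulated ones 0.48, 0.10 and 0.11, a response of 0.01 ± 0.15 (SE). The N-ras KO arrays read -0.14, 0.12 and 0.00 without and 0.16, 0.41 and 0.72 with stimulus. These did not overlap, and the response was 0.44 ± 0.15, 1.35-fold, under the 1.5-fold threshold, with a limma p of 0.029 and an adjusted p of 0.680. Without N-ras KO pair 3 it was 0.30, with a limma p of 0.13. The responses of WT and N-ras KO differed by -0.42 (interval -0.95 to 0.11), which did not pass the test.

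Dusp2 (chr2:127336159-127338377), a nuclear phosphatase first found in activated lymphocytes, was higher after stimulation in 5 of 6 pairs, the exception being WT pair 1 at -0.66. The other pairs ran from 0.18 to 1.00. Its WT response was 0.26 ± 0.32 (SE) and its N-ras KO response 0.52 ± 0.32, with overlapping groups in both genotypes and a limma p of 0.14 for the mean. Without WT pair 1, whose Nras went against its label, the WT response was 0.72 with a limma p of 0.034 and the mean response 0.62 with a p of 0.012, both past the study's thresholds, at adjusted p of 1.00 and 0.890. Without WT pair 3 the WT response was -0.0054.

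Dusp6 (chr10:99263231-99267489), the cytoplasmic ERK phosphatase, showed no common direction, being higher in 3 pairs and lower in 3, from -0.98 to 0.59. Its mean response was -0.04 (interval -0.54 to 0.46). Its arrays differed far more by replicate than by stimulus: N-ras KO replicate 3 stood at 1.99 and 2.25 and WT replicate 3 at -1.04 and -1.12, while the other 8 arrays lay between -1.22 and 0.59.

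Dusp10 (chr1:184034381-184075636), like Dusp16 a phosphatase of JNK and p38, was covered by 2 probe sets. On 1417163_at the mean response was 0.04 ± 0.21 (SE), with 3 pairs higher and 3 lower. On 1417164_at it was 0.41 ± 0.26, with 5 of 6 pairs higher and the largest, WT pair 3, at 1.52. N-ras KO replicate 3 was the highest N-ras KO array on both, at 0.89 and 1.39 on the first and 2.16 and 2.82 on the second, without and with stimulus. The unstimulated WT replicate 3 array was the lowest WT array on both, at -0.82 and -1.92. Its stimulated partner read 0.07 and -0.40, so this offset was smaller after stimulation. Neither probe set passed a threshold in either genotype.

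**Figure D2:**
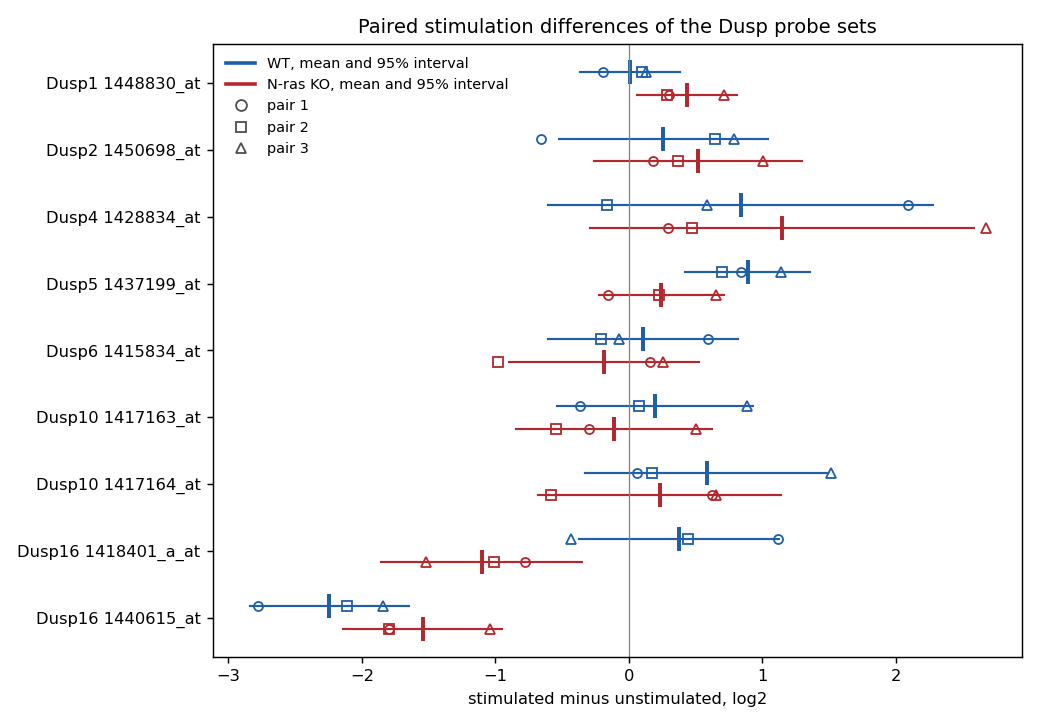
Stimulated minus unstimulated difference (horizontal axis, log2) of each member probe set, with 1 open symbol per pair, the mean as a bar and limma's 95% interval as a line, WT in blue and N-ras KO in red. Dusp16 on 1440615_at lies below 0 in both genotypes, Dusp5 lies above 0 in WT, and Dusp16 on 1418401_a_at lies on opposite sides of 0, at 0.38 in WT and -1.10 in N-ras KO.

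The responses of WT and N-ras KO cells were then set against each other. The study's thresholds were met by 1 of 9 member probe sets, against 4.12% of all probe sets, and that was Dusp16 on 1418401_a_at, with a WT response 1.48 ± 0.44 (SE) above that of N-ras KO (limma p of 0.014, adjusted p of 0.961). On the other Dusp16 probe set the difference ran the other way, -0.70 (interval -1.54 to 0.14). Leaving out the pairs labelled N-ras KO 3 and WT 1 brought the difference on 1418401_a_at to 0.90 with a p of 0.081, and a fit with no replicate block gave a p of 0.24. For Dusp2, Dusp4, Dusp6 and Dusp10 the differences were between -0.31 and 0.35, and their intervals reached at least from -0.72 to 0.85, so that a difference of that size in either direction is compatible with these pairs.

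The genes around the phosphatases were read from lists of the same pathway, each gene by 1 probe set. These lists, too, were chosen with earlier results of these data known. Of the ERK output genes, which ERK signalling is known to induce, 5 of 16 met the study's thresholds in WT, 5 in N-ras KO and 6 in the mean response, all of them higher. Egr2, a zinc finger factor of TCR signalling, was 2.55 ± 0.76 (SE) higher in WT and 5.40 ± 0.76 in N-ras KO. Nr4a1, an orphan receptor gene read as a reporter of TCR signal, was 2.22 ± 0.53 and 3.62 ± 0.53 higher. Egr1 was 1.00 ± 0.15 and 1.08 ± 0.15 higher (mean adjusted p = 0.333). Each of these genes, named for the smallest p of their list, was higher in all 6 pairs, as were 2.42% of all probe sets. No member of the phosphatase list was, which at that share makes no contrast between the lists. The median mean response was 0.28 for these 16 genes and 0.22 for the 7 phosphatases.

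The other dual-specificity phosphatases, 15 genes with Styx among them, had a median mean response of 0.05, and 1 met the thresholds, Dusp23 in N-ras KO at 0.84, which is named because it was the only one and after its value was seen. Dusp9, Dusp26 and Dusp3 had the smallest p of this list in the mean response, with 0.41, 0.21 and 0.14. Of 7 further MAP kinase phosphatases, Ptpn5, a tyrosine phosphatase, was lower in all 6 pairs (mean -0.45, limma p of 0.0083, adjusted p of 0.716) and met the thresholds in N-ras KO at -0.65. Ppp2cb and Ppm1b, at -0.36 and -0.23, did not. Among 17 kinases and scaffolds of the cascade none met them in WT and 1, the scaffold gene Ksr1, did in N-ras KO, at -0.65. Mapk7, which encodes ERK5, had a mean response of -0.42 (adjusted p = 0.756) and Araf one of -0.46.

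Markers of other cells were read on the same arrays. All 8 neutrophil markers had a mean N-ras KO response above 0 (median 0.87), none of them meeting the study's thresholds, with pair medians of 1.48, 0.61 and -0.19, against 1 of 8 in WT (median -0.09). S100a9, Ngp and Camp had N-ras KO responses of 0.52, 1.18 and 1.09. B cell markers had medians of 0.37 in N-ras KO and 0.01 in WT, macrophage and dendritic cell markers -0.25 and 0.33, CD8 and NK cell markers -0.61 and -0.33, erythroid markers 0.00 and -0.09, and T cell markers -0.06 and 0.00. In WT the study's thresholds were met by 1 of 5 B cell markers, higher, and 1 of 5 CD8 and NK cell markers, lower. In N-ras KO they were met by 1 of 5 CD8 and NK cell markers, lower, and by no B cell marker. No macrophage and dendritic cell, erythroid or T cell marker met them in either genotype. The part of all these markers in the phosphatase responses was not tested. Fewer cells of a type and less RNA per cell cannot be told apart in such bulk samples.

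**Figure D3:**
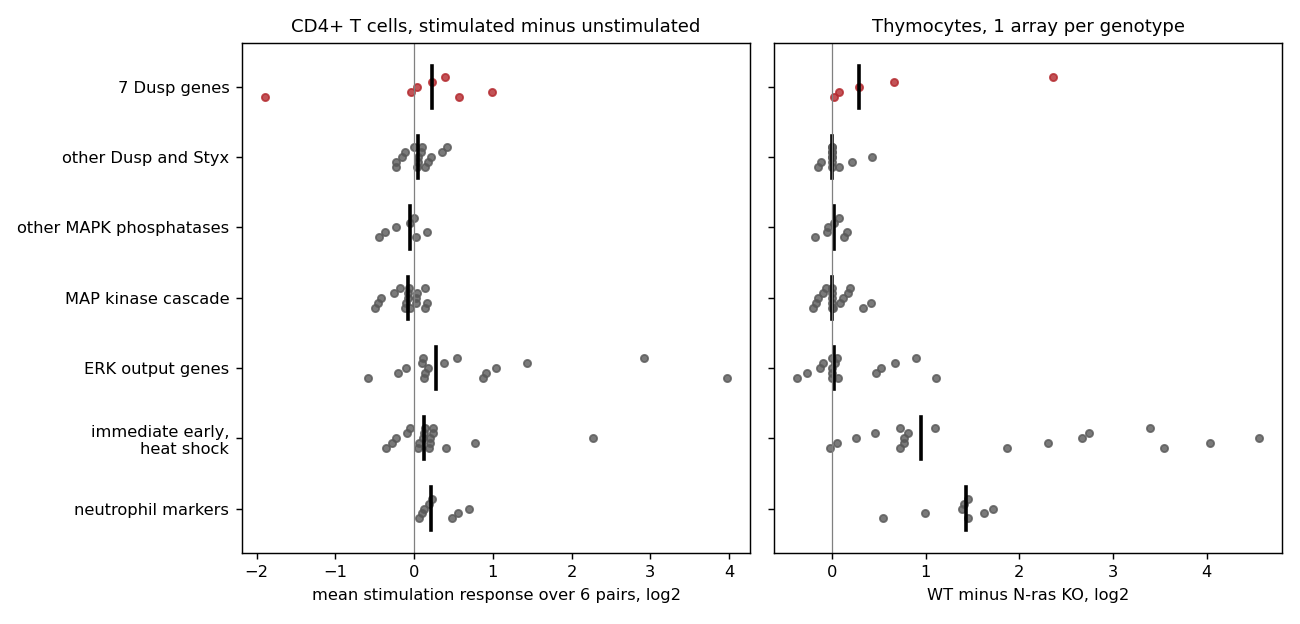
Left, mean stimulation response of CD4+ T cells over the 6 pairs, and right, WT minus N-ras KO in thymocytes (both horizontal axes in log2), with 1 point per gene, read by 1 probe set each, and a bar at the list's median. On the left Dusp16 is the lowest point of the phosphatases at -1.89 and Egr2 the highest of the ERK output genes at 3.98, and on the right Dusp1 at 2.36 lies among the immediate early and heat shock genes.

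In thymocytes, where genotypes and not stimulation were compared, Dusp1 gave the largest difference of the members. There was 1 array per genotype, so these differences have no replicate check and no test. Dusp1 read 1.69 in WT, -0.67 in N-ras KO and 0.00 in H-ras KO, which put WT 2.36 log2 units or 5.13-fold above N-ras KO and 1.69 units or 3.22-fold above H-ras KO. These differences ranked 21 and 39 of 22690 among probe sets higher in WT. Dusp6 read 0.34, -0.32 and 0.00, so that WT stood 1.59-fold above N-ras KO and 1.27-fold above H-ras KO. A difference of at least 1.5-fold with WT higher was thus found in 2 of 6 member probe sets against N-ras KO, where 1.09% of all probe sets had one, and in 1 of 6 against H-ras KO, where 1.51% had. At 2-fold only Dusp1 was left against either knockout.

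The other members differed little between the thymocyte arrays. Dusp2 read 0.29 in WT, 0.00 in N-ras KO and -0.09 in H-ras KO, with differences of 0.29 and 0.38. The 2 probe sets of Dusp10 differed by 0.07 and -0.07 from N-ras KO and by 0.12 and 0.21 from H-ras KO. Dusp16, read by 1418401_a_at alone, differed by 0.02 and -0.01. The probe set on which Dusp16 was lowest after stimulation in CD4+ T cells is not in the thymocyte table.

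**Figure D4:**
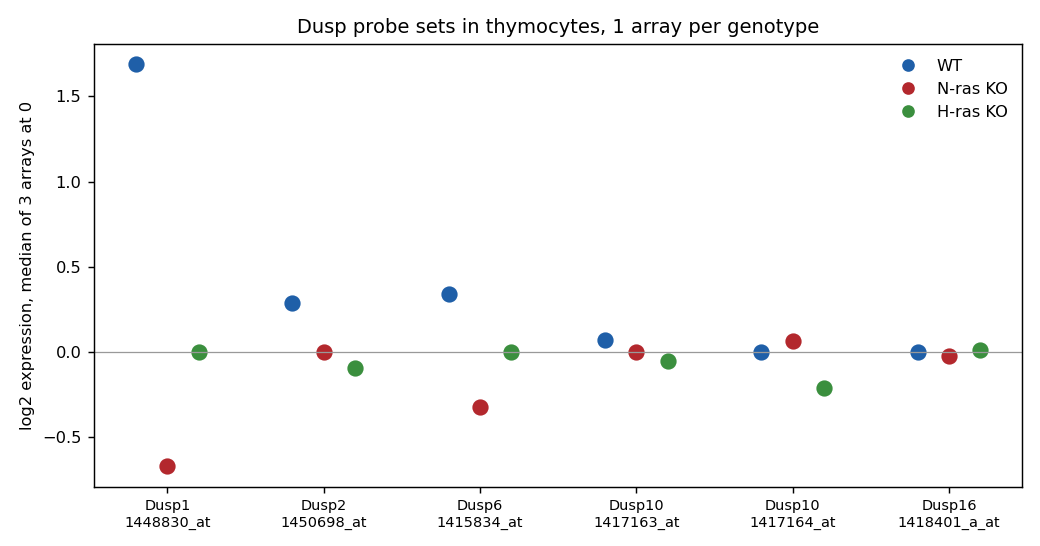
Log2 expression (vertical axis, 0 at the median of the 3 arrays) of the 6 member probe sets in thymocytes, 1 point per array, WT in blue, N-ras KO in red and H-ras KO in green. Dusp1 spans 1.69 in WT to -0.67 in N-ras KO, while Dusp16 and both Dusp10 probe sets stay within 0.3 of each other.

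Dusp1 was not the only gene that was higher in the WT thymocyte array. The lists read here were chosen with earlier results of these data known, so their counts are a description only. Of 18 immediate early and heat shock genes, which mitogens and cell stress are known to induce rapidly, 14 stood 1.5-fold or more above N-ras KO in WT (median 0.95) and 12 above H-ras KO (median 1.21). Hspa1b, a heat shock chaperone gene, was 4.56 and 3.20 higher, Hspa1a 4.04 and 3.52, and Fos, a subunit of AP-1, 3.54 and 1.63. Of 8 neutrophil markers 7 were at least 1.5-fold higher in WT against each knockout, with medians of 1.43 and 1.81. Camp was 1.45 and 2.35 higher, Ngp 1.72 and 2.28 and S100a9 1.62 and 2.12. Against H-ras KO, 2 of 5 B cell markers and 1 of 5 CD8 and NK cell markers were at least 1.5-fold higher in WT. Against N-ras KO none of them was. No macrophage and dendritic cell, erythroid or T cell marker reached 1.5-fold in either comparison. The part of all these genes in the Dusp1 difference was not tested, and with 1 array per genotype mouse, preparation and genotype cannot be told apart.

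The pathway lists moved less in thymocytes. Of 16 ERK output genes 3 were at least 1.5-fold higher in WT against each knockout: Ier3 by 1.11 and 1.05, Spry1 by 0.90 and 0.68 and Nr4a1 by 0.67 and 1.14, for N-ras KO and H-ras KO in turn. The median of that list was 0.02 and 0.03. The thymocyte table holds 0 in all 3 arrays for 5379 of its 22690 probe sets, none of them a member of the family, and such probe sets could show no difference. They covered 4 of the 16 ERK output genes, 7 of 13 other dual-specificity phosphatases and 4 of 17 cascade genes. Of the latter lists none of the remaining 6 and 13 genes, nor any of 7 other MAP kinase phosphatases, reached 1.5-fold in either comparison, Dusp11 at 0.43 against N-ras KO and Map2k6 at 0.42 being nearest to it there.

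The same genes were read in both cell types, but by unlike contrasts. Thymocytes gave a difference between genotypes, and CD4+ T cells gave a response to stimulation. The centring removes the like contrast, unstimulated WT against N-ras KO CD4+ T cells, so the values below do not compare the cell types. Dusp1, 5.13-fold apart between the thymocyte arrays of WT and N-ras KO, had the smallest WT response to stimulation in CD4+ T cells at 0.01. Dusp16 on 1418401_a_at, level across the thymocyte arrays, met the study's thresholds for N-ras KO CD4+ T cells at -1.10. Dusp6, 0.67 above the N-ras KO array in WT thymocytes, gave CD4+ T cell responses of 0.10 (WT) and -0.19 (N-ras KO).

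Genes with the most similar pattern over the 12 CD4+ T cell arrays were sought for the 3 members with the smallest p in the mean response. The 12 arrays share pairs and the centring, so Pearson's r is given as a description only. Nearest to Dusp16 on 1440615_at were Zmym5 with r = 0.95, Pcnt with 0.88 and Fpgs with 0.88, whose WT responses were -0.66, -0.70 and -0.59. Nearest to Dusp5 were Ccnd2, a cyclin of early cell cycle entry, with r = 0.97, Otog with 0.95 and Hsp90aa1 on 1438902_a_at with 0.95. Ccnd2 responded by 0.57 in WT and 0.04 in N-ras KO, beside 0.89 and 0.24 for Dusp5. Nearest to Dusp4 were Marcksl1 with r = 0.94, Gtf2ird1 with 0.91 and Fos with 0.86, and Fos responded by 2.45 in WT and 2.10 in N-ras KO.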

How the data were processed

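The deposited values are log2 expression values of Affymetrix mouse arrays that, per the labels and the study's methods, the authors made by RMA with quantile normalization and a baseline set to the median of control samples; they hold no intensities, so background and the precision of weak probe sets are unknown. The number of arrays (12 of CD4+ T cells, 3 of thymocytes) limits the precision stated, and the pairing assumed below changes it. For Dusp5 in WT the SE was 0.19 with the replicate block and 0.47 without it. Probe sets were named from GEO's platform annotation: 34958 of 45101 had 1 gene, 932 several and 9211 none in the CD4+ T cell table, and 20393, 691 and 1606 of 22690 in the thymocyte table. No probe set was filtered out.

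Stimulated minus unstimulated responses were estimated for every probe set by linear models in limma (version 3.58.1, R version 4.3.3) with moderated, two-sided tests. The fit held the 12 CD4+ T cell arrays, with the replicate number within genotype as a block (6 pairs, 4 residual degrees of freedom) and Benjamini-Hochberg adjustment over 45101 probe sets per contrast. Standard errors and 95% intervals are limma's. Same-numbered stimulated and unstimulated arrays of a genotype deviated together (correlations of deviations from the group means 0.361 to 0.738 over 6 pairs), while same-numbered unstimulated arrays of WT and N-ras KO did not (-0.621 to -0.234), so the pairing was taken within genotype; the methods describe the cells both as split between conditions and as 1 mouse per condition. The p-values measure the spread between these pairs. Thymocytes, with 1 array per genotype, were compared by fold alone. The fit was tested on simulated data.

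The members and all gene lists were chosen with earlier results of these data known. Named genes outside the 7 are, per list, up to 3 with the smallest p in the mean response and up to 3 with the largest thymocyte difference, from 1 probe set per gene (suffix _at first, then the lowest identifier), and Dusp23, named after its value was seen. Alternatives were no block, a random block, the methods' t-test, other normalizations, array weights, other probe set choices, pairs left out, and a 2-fold threshold. Promoters are RefSeq's, build GRCm38.p6.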

Additional observations from a re-analysis of the deposited data

How the results depend on the processing

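Of 36 CD4+ T cell responses and differences of the 9 probe sets, 23 kept their direction in every alternative; no alternative brought any past the adjusted p, and the 12 thymocyte differences kept their direction in all 46 values. The values that changed direction had an unadjusted p of at least 0.14. They came from quantile normalization (Dusp1 in WT, -0.13), from stimulated arrays compared alone (WT minus N-ras KO, -0.53 for Dusp6 and -0.21 and -0.90 for Dusp10), and from leaving out WT pair 1 and N-ras KO pair 3 together (Dusp6 in WT, -0.14, and Dusp2, WT minus N-ras KO, 0.44). Leaving out 1 pair in turn gave, in WT, ranges of -0.045 to 0.11 for Dusp1, -0.0054 to 0.72 for Dusp2, -0.14 to 0.26 for Dusp6 and -0.15 to 0.48 for Dusp10 on 1417163_at. In N-ras KO the ranges were -0.41 to 0.21 for Dusp6 and -0.42 to 0.10 for Dusp10, and in the mean response -0.16 to 0.16 and -0.13 to 0.19. For WT minus N-ras KO they were -0.53 to 0.20 for Dusp2, -0.94 to 0.45 for Dusp4, -0.10 to 0.52 for Dusp6, and -0.035 to 0.62 and -0.11 to 0.61 for Dusp10. The cause was not tested.

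Counts at the study's thresholds moved more. Without the replicate block, that is with no paired term, 1 member probe set met them in WT, 1 in N-ras KO and 0 in the difference, with 469, 1057, 634 and 583 of all probe sets in WT, N-ras KO, the mean and the difference, beside 1262, 2213, 1234 and 1859 with it; the Dusp5 call and the calls of Dusp16 on 1418401_a_at were lost. Stimulated arrays alone gave 0 members and 3112 probe sets for the difference. With the block as a random effect (correlation 0.542) 5 probe sets passed the adjusted p in N-ras KO and 5 in the mean, no member among them, and 2 members (Dusp4, Dusp16) met the study's thresholds in the mean and 0 in the difference. The methods' t-test gave 351 probe sets in WT and 405 in N-ras KO, with 0 members in N-ras KO and none of all probe sets past the adjusted p. Quantile normalization gave 1290 in N-ras KO and 1087 in the difference. Centring each array on its median gave 2 members in the mean (Dusp4, Dusp16) and 2 in the difference (Dusp5, Dusp16), and array weights the same 2 in the difference. With 1 probe set per gene, where fewer were tested, the counts were 527, 830, 467 and 744, with 1 member in N-ras KO. Leaving out 1 pair in turn gave 2 to 3 members in WT (Dusp2 joined without WT pair 1, Dusp16 on 1418401_a_at without WT pair 3), 1 to 2 in N-ras KO, 1 to 3 in the mean and 1 to 2 in the difference. In thymocytes the 2-fold threshold left 185 probe sets and 1 member for N-ras KO and 213 for H-ras KO, beside 599 and 675 at 1.5-fold, and 1 probe set per gene left 270 and 349.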
